A study of Mus musculus with 48 samples.

Results

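Mouse Kupffer cells, which are macrophages resident in the liver, and macrophages grown from blood monocytes were compared after 3 days with hepatocyte growth factor (HGF). The comparison was set by array titles alone, and held 3 Kupffer arrays and 3 monocytic arrays, 6 of the 48 arrays in the series. Every one of the 19505 genes with a probe set assigned to a single gene symbol was tested, with no filter on level. The Kupffer cells had been sorted magnetically by F4/80 from livers of Balbc male mice, and the monocytes by CD115 from the blood of the same animals. All of these cultures had first spent 1 day in MCSF, the growth factor on which macrophages depend. HGF was then given for 3 days. The same pair of cell types after 3 days in MCSF, the control of the study, and after 1 day with HGF served for comparison. Marker list means are also given for Kupffer cultures grown 3 days with CD146 cells or with Ito cells, and for those after 1 day in MCSF. The labels give neither the purity of the sorts, nor the dose of HGF, nor whether HGF was added to MCSF or replaced it. "Kupffer cultures" and "monocytic cultures" therefore name the source and the sort, and each array measured all cells of its culture. The titles call the 3 arrays of a group biological replicates, and the number of arrays limits the precision. The p-values of the main fit measure only the spread between cultures of the same group, estimated jointly over all 16 groups of the 48 arrays. In such bulk samples, fewer cells of a type and less RNA per cell cannot be told apart.

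HGF acts through the receptor Met, a tyrosine kinase best known from hepatocytes, bile duct cells and other epithelia, where it drives growth, movement and the building of tubes. In the liver HGF comes mainly from Ito cells (stellate cells) and sinusoidal endothelial cells, as a precursor that proteases such as urokinase cut into its active form. Kupffer cells settle in the liver before birth and renew themselves there, while monocytes arise in bone marrow, circulate in blood and can refill the niche of lost Kupffer cells.

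Values are log2 signals, on which 1 unit stands for a doubling. The mean log2 signal of the 5222 negative control probe sets, taken here as background, was 5.46, 5.41 and 5.48 on the Kupffer arrays and 5.65, 5.70 and 5.45 on the monocytic arrays, and 8880 genes (45.5%) lay below it on all 6 arrays. Arrays of the same group correlated by 0.9796 to 0.9893 (Kupffer) and 0.9864 to 0.9924 (monocytic) over genes, and arrays of different groups by 0.949 to 0.9582. The sort markers were measured first. Adgre1, which encodes F4/80, had 13.81, 12.81 and 13.22 on the Kupffer arrays, against 15.33, 15.15 and 14.96 on the monocytic arrays, and so was lower in the cultures sorted by it (-1.86 ± 0.30 log2 units, SE; adjusted p = 5.83e-06). Csf1r, which encodes CD115, differed by -0.05 ± 0.23 (adjusted p = 0.923). Clec4f, a lectin held to be specific to mouse Kupffer cells, was below the negative controls on all 6 arrays. Outside the comparison, 3 arrays stood apart from their groups: replicate 3 of the monocytic MCSF cultures at 3 days, replicate 1 of the Kupffer MCSF cultures at 1 day and replicate 2 of the Kupffer HGF cultures at 1 day. They entered the comparison of the HGF cultures at 3 days through the shared estimate of the spread. The first is also a member of a group in the comparison with MCSF and the third of one in the comparison with 1 day. The second enters the list means of Kupffer cultures after 1 day in MCSF. Values without these arrays are given for some of the lists and genes.

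The cultures differed at 3898 genes (20.0% of those tested; limma, adjusted p under 0.05 by Benjamini and Hochberg over all genes), of which 1911 (9.80%) were higher and 1987 (10.2%) lower in Kupffer cultures. With each array centred on its median, which moves the median difference of all genes from -0.0016 to -0.18, the split was 1414 higher and 2893 lower. Over all genes, the groups did not overlap for 2847 genes (14.6%) with Kupffer higher and for 3028 (15.5%) with Kupffer lower. Statements on overlap below are to be read beside these shares, and list counts beside the 9.80% and 10.2% above. Of the 12 named genes with the largest positive difference, 5 belong to the list of epithelial markers (Krt7, Lmo7, Krt18, Krt8 and Cdh1) and 1 to that of hepatocytes (Alb). Of the 12 with the largest negative difference, C1qa is a core macrophage gene, Pltp a lipid handling gene and Cxcl13 a chemokine. In all, 314 genes (1.61%) lay above the negative controls on all Kupffer arrays and below them on all monocytic arrays, against 92 genes (0.472%) the other way. Where 1 group lay below background throughout, the change is given as a lower bound ("at least"), taken from the brighter group's mean against the negative controls of the other group's arrays, or against the gene's own signal there where that was higher.

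Clu, the secreted chaperone clusterin, gave the widest gap among the named genes. Its log2 signals were 18.09, 17.68 and 17.87 on the Kupffer arrays, against 7.19, 7.18 and 6.46 on the monocytic arrays, and the groups lay far apart. The difference was 10.93 ± 0.51 (SE; adjusted p = 2.15e-19). Ccn1, a matrix protein induced by mechanical tension and growth factors, had 14.86, 13.64 and 14.32 on the Kupffer arrays, against 5.79, 4.95 and 6.30 on the monocytic arrays. It was higher in Kupffer cultures by 8.60 ± 0.67 (adjusted p = 2.6e-13). Igfbp7, a secreted binder of insulin-like growth factors, was at 14.62 ± 0.39 (SD, n = 3) in Kupffer cultures, against 6.43 ± 0.50 in monocytic ones, a difference of 8.18 ± 0.41 (adjusted p = 7.51e-19). Cryab, a small heat shock protein, was at least 145-fold higher (adjusted p = 5.84e-17), and Tm4sf1, a tetraspanin-like surface protein of endothelia and tumours, at least 107-fold (adjusted p = 9.88e-19).

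**Figure D1:**
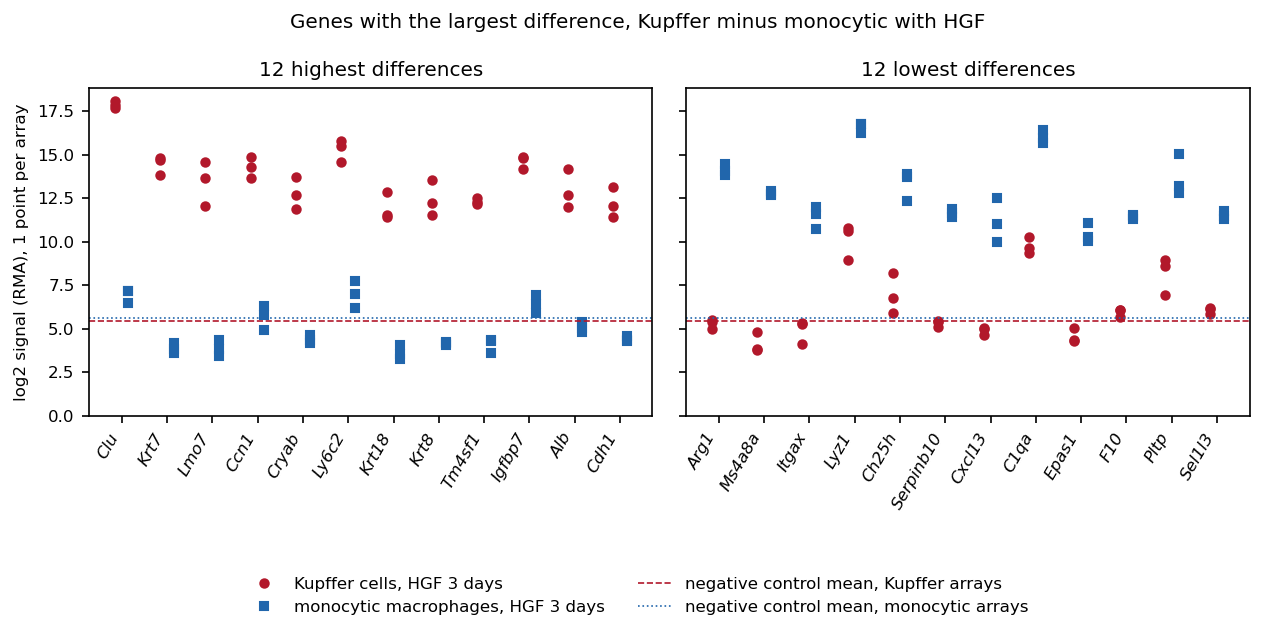
Log2 signal of the 12 genes with the highest (left panel) and the 12 with the lowest (right panel) Kupffer minus monocytic difference after 3 days with HGF, with 1 point per array, circles for Kupffer and squares for monocytic cultures, and dashed and dotted lines for the mean of each group's negative controls. Groups that do not overlap were a condition for a gene to be shown. Clu lies above 17 on each Kupffer array, and Ms4a8a, Itgax, Serpinb10, Cxcl13 and Epas1 lie below the negative controls on all 3 Kupffer arrays.

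Genes of simple epithelia, the keratins and junction proteins that line bile ducts, were higher in Kupffer cultures, and most lay under background in monocytic ones. Of 28 measured cholangiocyte and epithelial markers, 23 were higher in Kupffer cultures and 0 lower, with a median difference of 2.53 (0.54 with values under the negative controls raised to them), against -0.0016 over all genes (-0.15 with the same floor) and the background shares above. Of these, 15 were above the negative controls on every Kupffer array and below them on every monocytic array, while 6 of the 23 lay under background in both groups. Keratin 7 (Krt7), a filament protein of bile ducts, had 14.72, 13.84 and 14.80 on the Kupffer arrays, against 3.60, 4.19 and 3.83 on the monocytic arrays. All Kupffer arrays were close together and far above the rest, and the gene was at least 463-fold higher (adjusted p = 2.15e-19). The filament partners Krt8 and Krt18, which pair in simple epithelia, were at least 115-fold and at least 81.7-fold higher (adjusted p = 4.53e-17 and 1.1e-16). Krt19, a bile duct keratin, had 10.94, 9.57 and 10.24 on the Kupffer arrays, against 2.39, 4.02 and 2.82 on the monocytic arrays, at least 25.2-fold more (adjusted p = 1.86e-15). Cdh1, the cadherin of epithelial junctions, had 13.15, 11.45 and 12.09 on the Kupffer arrays, against 4.30, 4.58 and 4.38 on the monocytic arrays. It was at least 99.3-fold higher (adjusted p = 1.69e-17), with replicate 1 the highest of the Kupffer arrays. Lmo7, an adaptor of those junctions, was at least 229-fold higher, Perp, a desmosome protein, at least 15.6-fold, and Epcam, a surface adhesion protein of bile duct cells, at least 3.65-fold (adjusted p = 3e-18, 9.88e-19 and 7.19e-14).

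Markers of hepatocytes followed, at lower levels. Of 23 measured, 12 were higher and 1, the iron carrier gene Trf, lower, with a median of 0.96 (-0.15 with the floor, where 5 were higher and 1 lower). Alb, the plasma protein albumin, had 12.02, 14.17 and 12.71 on the Kupffer arrays, against 5.41, 4.84 and 5.06 on the monocytic arrays. Replicate 2 was the brightest Kupffer array, all monocytic arrays were under background, and Alb was at least 166-fold higher (adjusted p = 9.18e-17). Apob, the apolipoprotein of very low density lipoprotein, had 12.06, 10.76 and 11.28 on the Kupffer arrays, against 4.26, 3.91 and 4.38 on the monocytic arrays, and replicate 1 was here the brightest Kupffer array. It was at least 54.6-fold higher, and Ttr, the thyroxine carrier transthyretin, at least 4.14-fold (adjusted p = 4.38e-18 and 1.02e-12). The serum protein genes Ambp and Fgb were at least 1.99-fold and at least 1.89-fold higher (adjusted p = 2.44e-09 and 5.15e-06).

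Endothelial and Ito cell genes were also higher in Kupffer cultures. Of 27 sinusoidal endothelial markers, 11 were higher and 0 lower (median 0.68; -0.15 with the floor, where 4 were higher). Cdh5, the cadherin of endothelial junctions, had 11.96, 10.53 and 11.20 on the Kupffer arrays, against 3.75, 3.52 and 3.69 on the monocytic arrays, at least 49.5-fold more (adjusted p = 3.92e-14). The other leading members were dimmer, with Emcn, an endothelial sialomucin, at least 7.11-fold and Pecam1, an adhesion protein of endothelia and some leukocytes, at least 2.58-fold higher (adjusted p = 2.02e-13 and 3.88e-06). Of 25 markers of Ito cells and the myofibroblasts they become, 16 were higher and 0 lower (median 1.58; 0.12 with the floor, where 10 were higher). Acta2, smooth muscle actin, had 14.35, 13.37 and 13.96 on the Kupffer arrays, against 7.18, 7.21 and 6.85 on the monocytic arrays. The groups were well separated, by 6.81 ± 0.35 (adjusted p = 1.56e-18). Sparc, a collagen-binding matrix protein, had 16.18, 15.08 and 15.51 on the Kupffer arrays, against 8.20, 8.13 and 8.46 on the monocytic arrays, a difference of 7.33 ± 0.49 (adjusted p = 3.19e-15). Tagln, an actin-binding protein of smooth muscle, differed by 5.50 ± 0.40, and the matrix proteoglycan Bgn by 5.41 ± 0.54 (adjusted p = 3.27e-14 and 2.62e-10). Lox, which crosslinks collagen, was at least 28.8-fold higher, and the collagen chain Col1a1 at least 5.21-fold (adjusted p = 7.47e-17 and 6.17e-08).

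**Figure D2:**
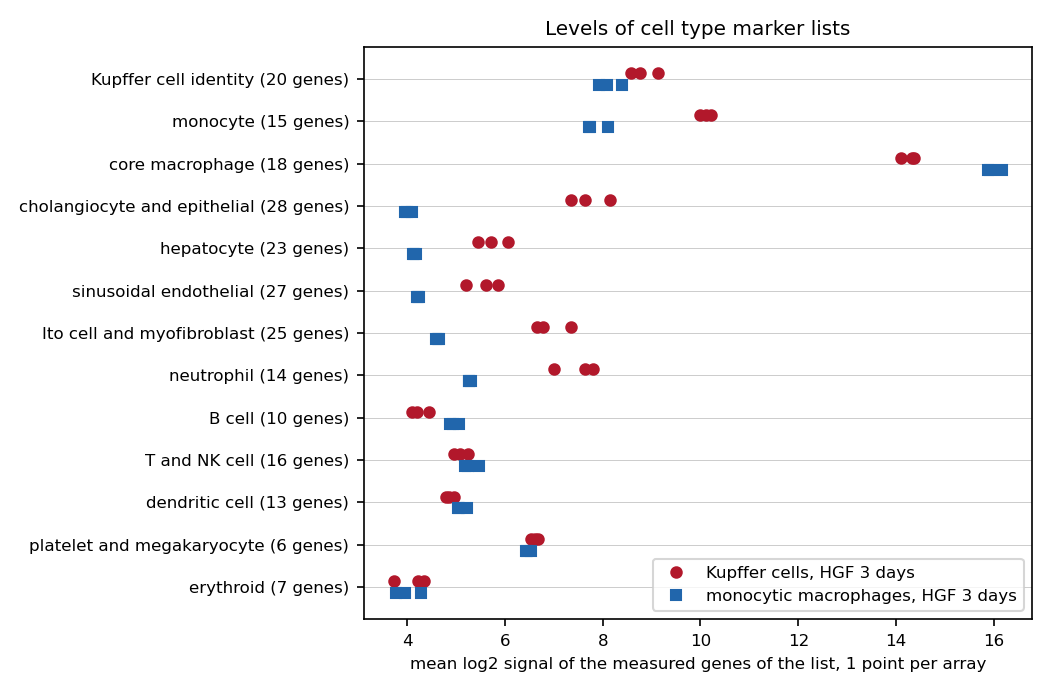
Mean log2 signal of the measured genes of each of 13 cell type marker lists, 1 point per array, with Kupffer cultures drawn above monocytic cultures for each list. The epithelial list lies between 7.34 and 8.15 in Kupffer cultures, against 3.96 to 4.10 in monocytic cultures, and the core macrophage list between 14.10 and 14.38, against 15.89 to 16.16.

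The summed picture of these lists separated the cultures completely. The mean log2 level of the epithelial list was 8.15, 7.34 and 7.64 on the Kupffer arrays, against 3.96, 4.10 and 3.99 on the monocytic arrays, with the exact permutation p at 0.1 (two-sided), the smallest that 3 against 3 allows. The hepatocyte list was at 5.45, 6.05 and 5.72 in Kupffer cultures, against 4.12, 4.14 and 4.17 in monocytic ones, the endothelial list at 5.86, 5.20 and 5.61, against 4.24, 4.19 and 4.23, and the Ito cell list at 7.35, 6.65 and 6.78, against 4.58, 4.64 and 4.63. In Kupffer cultures kept 3 days in MCSF, the epithelial mean was 4.21, the hepatocyte mean 4.21 and the endothelial mean 4.12, all close to monocytic cultures in MCSF at 4.15, 4.35 and 4.21. The Ito cell mean was 6.65 in Kupffer and 6.26 in monocytic cultures in MCSF, against 6.93 in Kupffer and 4.62 in monocytic cultures with HGF. Kupffer cultures grown 3 days with CD146 cells had 6.67, 4.67 and 4.71 for the epithelial, hepatocyte and endothelial lists. Those grown with Ito cells had 6.12, 5.25 and 4.92. In Kupffer cultures after 1 day with HGF the epithelial, hepatocyte and endothelial lists stood at 6.13, 5.82 and 6.72, and after 1 day in MCSF at 6.23, 6.02 and 7.03. These MCSF means include replicate 1, which stands apart, at 7.005, 6.635 and 8.112. The other arrays of that group had 5.509 to 6.171, 5.436 to 5.977 and 6.059 to 6.905. The part that such cells play in any of the differences reported here was not tested.

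Lymphocyte and red cell markers were low in both. Over all genes 9.80% were higher and 10.2% lower. Of 10 B cell markers 0 were higher and 2 lower, Bank1 (-2.66 ± 0.69, adjusted p = 0.0038) and Cd22 (-2.11 ± 0.64, adjusted p = 0.0134, but 0.0524 without Kupffer replicate 3 and 0.0696 without monocytic replicate 2). The defining antigen receptor genes Cd79a and Cd3e were below the negative controls on all Kupffer arrays and on 2 and 3 of the monocytic arrays. Cd79a differed by -1.53 (adjusted p = 0.2915, but 0.000439 without the arrays that stand apart). Without those arrays 1 B cell marker was higher and 4 were lower. Of 16 T and NK cell markers 1 was higher, Cd28, a costimulatory receptor (0.127 without Kupffer replicate 3 and 0.0613 without monocytic replicate 3), and 1 lower, Gzma, which lay under background in both groups. Of 13 dendritic cell markers 1 was higher and 1 lower, and of 7 erythroid markers none passed in either direction. The dendritic cell marker that was higher was Fscn1, an actin bundler also found in spreading epithelial cells, at least 34-fold (adjusted p = 1.98e-13). Of 6 platelet markers Ppbp was higher, at least 1.7-fold (adjusted p = 0.00146, or 0.153 with the floor). Treml1, under background in both groups, and Pf4 were lower, and the call of Pf4 was lost without Kupffer replicate 2 or 3 (0.0982 and 0.0828) or monocytic replicate 2 or 3 (0.0640 and 0.184).

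Genes shared by all macrophages were lower in Kupffer cultures. Of 18 core macrophage genes, 14 were lower and 1 higher, with a median of -1.47, and the list's mean level was 14.38, 14.10 and 14.32 on the Kupffer arrays, against 15.89, 16.16 and 15.93 on the monocytic arrays. Ptprc, the leukocyte antigen CD45, differed by -1.25 ± 0.40 (adjusted p = 0.0218), and lost its call without Kupffer replicate 1 (0.0627), Kupffer replicate 2 (0.0943) or monocytic replicate 2 (0.107). Itgam, the CD11b integrin chain, had 14.17, 13.70 and 14.72 on the Kupffer arrays, against 16.86, 16.70 and 16.16 on the monocytic arrays, lower by every array (-2.38 ± 0.35, adjusted p = 1.06e-06). Ctss, the cathepsin of antigen processing, was lower by a smaller step (-1.24 ± 0.19, adjusted p = 3.63e-06). The exception was Fcgr1, the high affinity receptor for antibody, with 14.57, 14.62 and 14.64 on the Kupffer arrays, against 13.21, 13.43 and 13.54 on the monocytic arrays, and higher by 1.22 ± 0.29 (adjusted p = 0.00149).

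The subunits of C1q, the pattern-binding start of the complement cascade that resident macrophages make, fell together. C1qa had 10.29, 9.36 and 9.63 on the Kupffer arrays, against 15.68, 16.44 and 16.00 on the monocytic arrays. The lowest monocytic array exceeded the highest Kupffer array by a wide margin, and the difference was -6.28 ± 0.67 (adjusted p = 1.19e-09). C1qc differed by -4.46 ± 0.48 and C1qb by -3.22 ± 0.49 (adjusted p = 1.53e-09 and 1.99e-06). Within the complement list, 7 of 17 genes were lower and 3 higher (Cd55, Serping1 and C1s1; median -0.62). C4b, a later component of the cascade, was at least 19.6-fold lower (adjusted p = 2.73e-07), and Serping1, the C1 inhibitor, at least 1.49-fold higher (adjusted p = 2.93e-05).

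Genes held to mark resident Kupffer cells were not uniformly higher in the Kupffer cultures. Of 20 measured, 6 were higher (Spic, Id1, Id3, Clec1b, Slc40a1 and Slc16a9), 3 lower (Folr2, Vsig4 and Sdc3), and the median was 0.18 (-0.03 with the floor). Spic, a transcription factor of iron-recycling macrophages, had 11.42, 8.83 and 8.21 on the Kupffer arrays, against 3.90, 3.94 and 3.89 on the monocytic arrays, with Kupffer replicate 1 well above the other two. It was at least 14.8-fold higher (adjusted p = 1.88e-09). Clec1b, a C-type lectin of Kupffer cells and platelets, was at least 3.5-fold higher (adjusted p = 2.4e-08). Id3, a transcriptional inhibitor that Kupffer cell development needs, had 10.51, 8.65 and 8.92 on the Kupffer arrays, against 4.01, 3.77 and 9.16 on the monocytic arrays. Monocytic replicate 3 reached the Kupffer levels, so the groups overlapped, and the difference was 3.71 ± 0.68 (adjusted p = 5.25e-05). Slc40a1, the iron exporter ferroportin, differed by 2.06 ± 0.47 (adjusted p = 0.000955). Vsig4, a complement receptor of resident macrophages, had 11.40, 10.07 and 10.59 on the Kupffer arrays, against 12.50, 12.65 and 12.03 on the monocytic arrays, and was lower by every array (-1.71 ± 0.29, adjusted p = 1.29e-05). Folr2, a folate receptor of tissue macrophages, was lower too (-2.45 ± 0.39, adjusted p = 4.73e-06). Timd4, a receptor for dying cells, differed by -0.79 ± 0.35 (adjusted p = 0.117, but 0.0481 without monocytic replicate 3 and 0.00558 without the arrays that stand apart). Cd5l, a secreted lipid regulator, was at 12.57 ± 0.72 in Kupffer cultures, against 12.30 ± 0.48 in monocytic ones (SD, n = 3 each; adjusted p = 0.796), the scavenger receptor Marco at 9.23 ± 0.80, against 9.41 ± 0.54 (adjusted p = 0.912), and the sterol receptor Nr1h3 at 7.26 ± 0.50, against 7.17 ± 0.30 (adjusted p = 0.915).

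Genes that mark monocytes, inflammatory or patrolling, were more often higher than lower in the Kupffer cultures. Of 15 measured, 8 were higher and 2 lower (Ifitm6 and Itga4), with a median of 2.39. Ly6c2, the surface antigen that defines inflammatory monocytes, had 14.59, 15.51 and 15.83 on the Kupffer arrays, against 6.999, 7.73 and 6.22 on the monocytic arrays. The groups were separated by 8.32 ± 0.47 (adjusted p = 2.03e-17). The close paralog Ly6c1 may share its probes, as near copies may for Chil3 and Ifit3, and these values are uncertain to that extent. Plac8, a gene of monocytes and their precursors, had 12.30, 14.26 and 13.29 on the Kupffer arrays, against 5.80, 6.64 and 6.36 on the monocytic arrays, a difference of 7.02 ± 0.46 (adjusted p = 1.46e-15). Ccr2, the chemokine receptor by which monocytes leave bone marrow, had 12.12, 13.33 and 13.33 on the Kupffer arrays, against 9.79, 10.09 and 9.82 on the monocytic arrays. Kupffer replicate 1 was the lowest of its group and still above all monocytic arrays (3.03 ± 0.45, adjusted p = 1.56e-06). Chil3, a secreted chitinase-like protein, was at least 20.0-fold higher (adjusted p = 2.16e-13). Cx3cr1, the receptor of patrolling monocytes, differed by -1.13 ± 0.44 (adjusted p = 0.0642, but 0.0459 without monocytic replicate 1 and 0.00985 without the arrays that stand apart). Tarm1, an activating receptor of myeloid cells, was higher by 7.01 ± 0.38 (adjusted p = 4.99e-18).

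Genes of neutrophil granules were higher as well. Of 14 neutrophil markers, 7 were higher and 2, Csf3r and Mmp9, lower (median 1.09; 0.82 with the floor, where 7 were higher and 1 lower). Mpo, the myeloperoxidase of primary granules, had 9.95, 12.33 and 13.09 on the Kupffer arrays, against 4.63, 4.91 and 5.08 on the monocytic arrays. Kupffer replicate 1 was the lowest of its group for Mpo, and all monocytic arrays were under background, so that the gene was at least 73.2-fold higher (adjusted p = 3.06e-13). The granule proteases Elane and Prtn3 were at least 23.3-fold and at least 32.1-fold higher, with the same Kupffer array the lowest in both (adjusted p = 4.25e-13 and 1.32e-14). Ngp, a neutrophil granule protein, was at least 19.8-fold higher, and S100a9, a subunit of the calcium binder calprotectin, at least 9.27-fold (adjusted p = 1.98e-15 and 2.52e-10). The list's mean was 7.01, 7.64 and 7.79 in Kupffer cultures, against 5.27, 5.27 and 5.31 in monocytic ones, and 6.43 in Kupffer cultures kept in MCSF. The part of granulocytes or their precursors in these differences was not tested.

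Arg1, the arginase of alternatively activated macrophages, had the most negative difference among the named genes. Its log2 signals were 5.52, 5.36 and 5.01 on the Kupffer arrays, against 13.83, 14.46 and 14.09 on the monocytic arrays. Of the Kupffer values 2 were under background, and the difference was -8.82 ± 0.59 (adjusted p = 2.44e-15). Its list of 18 alternative activation genes had 3 higher (Chil3, F13a1 and Il4ra, the last at 0.0902 without Kupffer replicate 3) and 3 lower (Arg1, Igf1 and Trem2), not far from the 9.80% and 10.2% of all genes. Mrc1, the mannose receptor of that list, was at 14.46 ± 0.24 in Kupffer cultures, against 14.93 ± 0.16 in monocytic ones (adjusted p = 0.635). Igf1, the growth factor, was lower at -1.99 ± 0.38, and Trem2, a lipid receptor of tissue macrophages, at -1.60 ± 0.28 (adjusted p = 0.000103 and 2.66e-05).

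Other genes near the bottom of the ranking covered adhesion, secretion and sterol handling. Itgax, the CD11c integrin chain, had 5.34, 4.13 and 5.25 on the Kupffer arrays, against 12.03, 11.59 and 10.75 on the monocytic arrays, at least 64.3-fold lower (adjusted p = 3.24e-15). Ms4a8a, a four-span membrane protein of macrophages, was at least 159.5-fold lower, and Serpinb10, a protease inhibitor of blood cells, at least 73.7-fold (adjusted p = 1.43e-09 and 1.29e-10). Lyz1, a lysozyme, had 8.99, 10.81 and 10.62 on the Kupffer arrays, against 16.77, 16.77 and 16.25 on the monocytic arrays, a difference of -6.46 ± 0.35 (adjusted p = 7.15e-18), although probes of Lyz1 may also bind its close paralog Lyz2. Epas1, a hypoxia-responsive transcription factor, was at least 32.2-fold lower (adjusted p = 8.14e-17). F10, coagulation factor X, differed by -5.51 ± 0.80, and Sel1l3, a membrane protein of little known function, by -5.48 ± 0.49 (adjusted p = 1.13e-06 and 1.54e-11). Ch25h, which makes the oxysterol 25-hydroxycholesterol, had 8.22, 5.89 and 6.79 on the Kupffer arrays, against 13.72, 13.91 and 12.37 on the monocytic arrays, lower by every array (-6.37 ± 0.96, adjusted p = 2.22e-06).

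Cholesterol genes split by their role. Of 16 targets of the sterol receptor LXR and other lipid handling genes, 8 were lower and 0 higher (median -0.74). Apoe, the lipoprotein that carries cholesterol out of macrophages, had 12.27, 12.08 and 11.88 on the Kupffer arrays, against 16.83, 17.86 and 16.90 on the monocytic arrays. The groups did not overlap and differed by -5.12 ± 0.31 (adjusted p = 1.06e-16). The export pumps Abca1 and Abcg1 differed by -4.96 ± 0.37 and -2.96 ± 0.40, and Pltp, which transfers phospholipid between lipoproteins, by -5.51 ± 0.70 (adjusted p = 1.05e-13, 2.05e-07 and 6.72e-08). The fatty acid binder Fabp4 was lower too (-4.39 ± 0.50, adjusted p = 5.44e-09). Genes of cholesterol synthesis ran the other way: of 19, 11 were higher and 1 (Dhcr7) lower, with a median of 1.13. Sqle, the squalene epoxidase, had 9.48, 9.16 and 8.84 on the Kupffer arrays, against 6.10, 4.92 and 5.72 on the monocytic arrays, higher by 3.58 ± 0.32 (adjusted p = 9.23e-12). Idi1, an isomerase early in the pathway, was higher by 3.13 ± 0.35, Hsd17b7, a reductase late in it, by 3.03 ± 0.29, and Fdft1, squalene synthase, by 2.34 ± 0.30 (adjusted p = 3.08e-09, 1.07e-10 and 9.99e-08).

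Genes for the uptake and digestion of dying cells were lower. Of 18 genes of efferocytosis and its bridging molecules, 10 were lower and 1 higher (median -1.15). Mertk, the receptor kinase that takes up apoptotic cells, had 8.005, 7.02 and 7.42 on the Kupffer arrays, against 11.16, 11.56 and 10.65 on the monocytic arrays, a clear gap of -3.65 ± 0.32 (adjusted p = 8.69e-12). Its ligand Pros1 differed by -3.86 ± 0.35, and Mfge8, a bridge between dying cells and integrins, by -3.67 ± 0.38 (adjusted p = 1.87e-11 and 8.03e-10). The related receptor Axl went up instead, with 11.93, 10.59 and 11.34 on the Kupffer arrays, against 8.24, 8.06 and 7.80 on the monocytic arrays (3.26 ± 0.46, adjusted p = 6.56e-07). Of 22 lysosomal genes, 14 were lower and 0 higher (median -0.94). Atp6v0d2, a proton pump subunit of macrophages and osteoclasts, had 12.26, 11.05 and 12.03 on the Kupffer arrays, against 16.78, 16.34 and 16.40 on the monocytic arrays, apart by -4.72 ± 0.47 (adjusted p = 2.47e-10). The heparan sulfate enzyme Naglu differed by -3.52 ± 0.41, and the membrane protein Lamp2 by -1.09 ± 0.17 (adjusted p = 9.28e-09 and 3.42e-06).

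Receptors for antibody, microbes and antigen presentation were mixed. Their counts stand beside 9.80% higher and 10.2% lower over all genes. Among 5 Fc gamma receptor genes, Fcgr2b, the inhibitory receptor, had 12.63, 13.05 and 12.91 on the Kupffer arrays, against 17.15, 17.06 and 16.38 on the monocytic arrays, lower on every Kupffer array (-4.0 ± 0.40, adjusted p = 3.45e-10). Fcgr3 was also lower (-1.73 ± 0.35, adjusted p = 0.000284), while Fcgr1 was higher, as above. Of 13 Toll-like receptor genes 2 were higher (Tlr5 and Tlr3) and 4 lower (Tlr8, Cd14, Tlr7 and Tlr13), and of these Tlr3, Cd14, Tlr7 and Tlr13 each lost its call when 1 of the arrays was left out, at adjusted p from 0.0550 to 0.139. Tlr5, the flagellin receptor, was at least 2.17-fold higher (adjusted p = 6.09e-08), and Tlr8, a sensor of RNA, differed by -1.51 ± 0.42 (adjusted p = 0.00759). Of 14 genes of MHC class II and costimulation, 8 were lower and 1 (Icosl) higher (median -1.73). The 8 became 4 without Kupffer replicate 3 or without monocytic replicate 2, and Icosl lost its call without Kupffer replicate 1 (0.301) or monocytic replicate 3 (0.0763). Cd40, which receives T cell help, had 7.37, 5.11 and 5.73 on the Kupffer arrays, against 8.14, 8.60 and 9.59 on the monocytic arrays (-2.71 ± 0.44, adjusted p = 7.93e-06). The peptide loader H2-DMb1 differed by -2.98 ± 0.55, and the costimulator Cd80 by -1.55 ± 0.31 (adjusted p = 7.22e-05 and 0.000225). Of 19 scavenger receptors and lectins 6 were lower and 3 higher (Scarb1, and Scara3 and Stab2, which were under background in both groups). Colec12, a collectin, differed by -3.88 ± 0.48, and Msr1, which takes up modified lipoprotein, by -1.37 ± 0.28 (adjusted p = 4.62e-08 and 0.000306).

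Integrins showed which adhesion systems differed. Of 18, 8 were lower and 4 higher (Itga2, Itga3, Itgb6 and Itgb4). Itga2, the collagen-binding chain of epithelia and platelets, had 10.50, 10.02 and 10.70 on the Kupffer arrays, against 3.70, 3.99 and 2.98 on the monocytic arrays, at least 28-fold higher (adjusted p = 2.23e-17). Itga3, the laminin-binding chain of epithelia, was at least 21.3-fold higher (adjusted p = 8.81e-13). On the other side stood the leukocyte chains Itgax and Itgam, above, and Itgb3, a vitronectin receptor chain, at -2.36 ± 0.34 (adjusted p = 1.07e-06). The remaining lower chains were Itga9, Itgb2, Itga6, Itgb5 and Itga4.

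Genes induced by interferon were higher in Kupffer cultures. Of 24 measured, 18 were higher and 0 lower, with a median of 1.46, and the list's mean level was 10.14, 9.63 and 10.72 on the Kupffer arrays, against 8.73, 8.51 and 8.55 on the monocytic arrays. Promoters of Ifit1 and Ifit3, antiviral proteins that bind foreign RNA and lead this list, are shown because both carry 2 matches, in capitals, to the interferon response motif, which is GAAA, then 2 bases of any kind, then GAAA (searched on both strands). The windows are the 250 bases before the start site in RefSeq (GRCm38.p6), written along the gene's strand, at chr19:34640639-34640888 (+) for Ifit1 and chr19:34583279-34583528 (+) for Ifit3.
Ifit1: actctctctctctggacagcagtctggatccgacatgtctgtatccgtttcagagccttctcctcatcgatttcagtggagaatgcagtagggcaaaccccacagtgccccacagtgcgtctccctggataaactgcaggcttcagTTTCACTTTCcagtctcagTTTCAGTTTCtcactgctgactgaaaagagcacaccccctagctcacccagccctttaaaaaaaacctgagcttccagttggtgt
Ifit3: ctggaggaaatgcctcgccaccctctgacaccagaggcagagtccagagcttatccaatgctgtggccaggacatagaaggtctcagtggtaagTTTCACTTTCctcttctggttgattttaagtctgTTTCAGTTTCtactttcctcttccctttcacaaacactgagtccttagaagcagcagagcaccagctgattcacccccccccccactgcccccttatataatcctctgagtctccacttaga
The motif was found in 936 of 27025 such windows (3.46%) and in 8 of the 17 listed interferon genes with a window (47.1%), among them 5 of the 12 with a window that were higher (41.7%). A match describes the letters and does not show binding. Ifit3 had 12.93, 11.55 and 13.41 on the Kupffer arrays, against 9.03, 8.22 and 9.08 on the monocytic arrays, with Kupffer replicate 2 the lowest of its group (3.85 ± 0.44, adjusted p = 6.43e-09). Ifit1 had 9.63, 9.52 and 10.59 on the Kupffer arrays, against 7.03, 6.75 and 6.86 on the monocytic arrays (3.03 ± 0.36, adjusted p = 1.26e-08). Isg15, a ubiquitin-like protein, was at least 1.82-fold higher, and Usp18, which removes it and restrains interferon signalling, higher by 2.01 ± 0.33 (adjusted p = 1.95e-07 and 1.03e-05). Cmpk2, a mitochondrial nucleotide kinase, was higher by 2.73 ± 0.32 (adjusted p = 1.53e-08).

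Inflammatory mediators gave a narrower picture. Of 19, 4 were higher (Ptgs2, Il6, Tnf and Il10) and 1 lower (Il1rn), with a median of 0.21. Ptgs2, the inducible cyclooxygenase of prostaglandin synthesis, had 12.93, 11.64 and 12.12 on the Kupffer arrays, against 6.01, 5.49 and 5.07 on the monocytic arrays, and was higher by 6.71 ± 0.58 (adjusted p = 7.04e-12). Tnf, the cytokine tumour necrosis factor, had 16.54, 12.36 and 12.73 on the Kupffer arrays, against 11.41, 11.35 and 11.39 on the monocytic arrays. Kupffer replicate 1 was far above the rest, and the difference of 2.50 ± 0.87 (adjusted p = 0.0349) became 1.16 (adjusted p = 0.396) without it. The call of Tnf was also lost without any 1 of the monocytic arrays, at 0.0728 to 0.0827. Il6, a cytokine of the acute phase, was at least 1.58-fold higher, and Il10, which dampens inflammation, at least 2.11-fold (adjusted p = 0.000103 and 0.000823), and Il6 did not pass with the floor at the negative controls (0.355). Il1b, a cytokine of inflammasome activation, had 8.28, 4.78 and 4.82 on the Kupffer arrays, against 5.02, 5.12 and 4.36 on the monocytic arrays, and did not pass (adjusted p = 0.324). Nos2, the inducible nitric oxide synthase, was below the negative controls on all 6 arrays. Il1rn, which blocks interleukin 1, had 16.06, 15.16 and 16.19 on the Kupffer arrays, against 18.09, 17.89 and 17.03 on the monocytic arrays (-1.87 ± 0.40, adjusted p = 0.000463).

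Of 27 chemokine genes, 7 were higher and 5 lower (Cxcl13, Cxcl16, Ccl6, Cxcl14 and Pf4), against 9.80% and 10.2% of all genes. Without the 3 arrays that stand apart 13 were higher, and with the floor 3 were higher and 5 lower. Cxcl10, which draws T cells, had 14.01, 11.14 and 12.28 on the Kupffer arrays, against 5.83, 5.26 and 5.77 on the monocytic arrays (6.86 ± 0.61, adjusted p = 1.01e-11). Cxcl12, a chemokine of stromal niches, had 10.22, 9.37 and 10.33 on the Kupffer arrays, against 4.09, 4.98 and 5.57 on the monocytic arrays (5.10 ± 0.37, adjusted p = 2.59e-14). Both were well apart between the groups. Cxcl13, which draws B cells, had 4.62, 5.05 and 4.98 on the Kupffer arrays, against 11.00, 12.54 and 9.997 on the monocytic arrays, at least 53-fold lower (adjusted p = 5e-09). Cxcl16, a membrane-bound chemokine, differed by -2.03 ± 0.24, and Ccl6 by -1.99 ± 0.39 (adjusted p = 1.2e-08 and 0.000134).

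Genes of cell division were higher in Kupffer cultures, in numbers that depended on arrays outside the comparison. Of 25 cell cycle genes, 12 were higher and 0 lower, with a median of 1.81, and the list's mean was 11.35, 11.07 and 11.29 on the Kupffer arrays, against 9.55, 9.48 and 9.55 on the monocytic arrays. The count was 24 without the 3 arrays that stand apart, 23 with only the 6 arrays compared, and 6 without monocytic replicate 2. Among the arrays apart, monocytic MCSF replicate 3 at 3 days had a list mean of 10.61, against 5.88 to 6.04 on the other arrays of its group. Cdc20, an activator of the anaphase complex, had 8.89, 8.99 and 8.51 on the Kupffer arrays, against 6.23, 6.48 and 6.83 on the monocytic arrays, higher by 2.29 ± 0.42 (adjusted p = 5.52e-05). Aurka, a mitotic kinase, had 9.85, 10.47 and 10.07 on the Kupffer arrays, against 7.31, 7.10 and 7.60 on the monocytic arrays (2.79 ± 0.52, adjusted p = 6.39e-05). Mki67, the proliferation antigen Ki-67, had 15.98, 15.44 and 16.02 on the Kupffer arrays, against 14.36, 14.08 and 14.24 on the monocytic arrays. Its groups did not overlap, and the difference of 1.59 ± 0.63 had an adjusted p of 0.0712, or 3.54e-05 without the arrays apart and 0.0013 with only the 6 arrays. Of 23 DNA replication genes 10 were higher (median 1.35; 6 without Kupffer replicate 1, and 19 without the arrays apart), among them the helicase subunit Mcm4 (2.07 ± 0.41, adjusted p = 0.000151) and the origin licensing factor Cdc6 (1.85 ± 0.36, adjusted p = 0.000127).

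The HGF pathway itself was tested next. Met, the HGF receptor, had 10.68, 10.13 and 10.61 on the Kupffer arrays, against 7.60, 6.61 and 7.005 on the monocytic arrays. All Kupffer arrays were above all monocytic ones, by 3.40 ± 0.34 (adjusted p = 3.46e-10). Hgf, the ligand, ran the other way, with 7.70, 7.67 and 7.44 on the Kupffer arrays, against 8.94, 8.68 and 8.60 on the monocytic arrays, a difference of -1.14 ± 0.34 (adjusted p = 0.0133, but 0.0547 without Kupffer replicate 3 and 0.0599 without monocytic replicate 1). Of 21 genes of HGF activation and Met signalling, 4 were higher (Spint2, Met, Plat and Ets1) and 5 lower (Plau, Cbl, Grb2, Hgf and Plaur), against 9.80% and 10.2% of all genes. The 5 became 3 without Kupffer replicate 2, Kupffer replicate 3 or monocytic replicate 1. Plau, the urokinase that can activate HGF, had 13.01, 12.74 and 13.41 on the Kupffer arrays, against 15.90, 15.33 and 15.44 on the monocytic arrays (-2.51 ± 0.30, adjusted p = 1.72e-08). Spint2, an epithelial inhibitor of HGF activation, was at least 3.25-fold higher, and Plat, a related plasminogen activator, at least 1.78-fold (adjusted p = 4.35e-12 and 3.68e-06). Cbl, which marks active Met for degradation, differed by -1.30 ± 0.26 (adjusted p = 0.000204).

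Downstream of receptor kinases, 6 of 24 genes of ERK feedback and immediate early response were higher and 2 lower (Egr2 and Dusp6), against 9.80% and 10.2% of all genes. Of the 6, Etv4 lay under background in both groups, and Myc lost its call without Kupffer replicate 3 (0.079). Dusp5, a phosphatase induced by ERK, had 11.12, 9.85 and 10.22 on the Kupffer arrays, against 7.40, 7.13 and 6.86 on the monocytic arrays (3.27 ± 0.58, adjusted p = 3.07e-05). Ier3 was higher by 3.096 ± 0.53, and Fosl1, a partner in the AP-1 factor, by 2.25 ± 0.40 (adjusted p = 1.76e-05 and 2.93e-05). Egr2, a transcription factor of macrophages, had 9.87, 7.87 and 7.86 on the Kupffer arrays, against 12.16, 12.47 and 11.97 on the monocytic arrays (-3.67 ± 0.46, adjusted p = 6.27e-08). Of 10 EGF family genes, 5 were higher (Ereg, Nrg1, Egfr, Erbb2 and Hbegf) and 0 lower. Without Kupffer replicate 1 the count was 3, with Erbb2 at 0.0886 and Hbegf at 0.0792, and Erbb2 was under background in both groups. Ereg, the ligand epiregulin, was at least 4.73-fold higher, the ligand Nrg1 at least 2.58-fold, and the receptor Egfr at least 1.48-fold (adjusted p = 1.37e-06, 4.35e-05 and 1.41e-05). Csf1, which encodes MCSF and was picked after its values were seen, had 15.83, 14.39 and 15.32 on the Kupffer arrays, against 10.28, 9.79 and 9.39 on the monocytic arrays. It was higher by 5.36 ± 0.50 (adjusted p = 4.6e-11).

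Ccn1 is a classic target of the YAP and TEAD factors, which respond to cell spreading and growth signals, and 2 other such targets, Ankrd1 and Ccn2, were looked up after its value was seen. Ankrd1, a muscle ankyrin repeat protein, had 11.73, 11.76 and 12.27 on the Kupffer arrays, against 6.64, 6.18 and 5.95 on the monocytic arrays (5.67 ± 0.32, adjusted p = 2.71e-17). Ccn2, connective tissue growth factor, had 13.40, 10.01 and 11.45 on the Kupffer arrays, against 4.71, 4.41 and 3.99 on the monocytic arrays, at least 65.1-fold higher (adjusted p = 5.58e-13). The promoters of Ccn1 and Ankrd1 are shown for the TEAD motif GGAATG, in capitals on either strand, as the 250 bases before the RefSeq start site (GRCm38.p6), along the gene's strand, at chr3:145649986-145650235 (-) and chr19:36119845-36120094 (-).
Ccn1: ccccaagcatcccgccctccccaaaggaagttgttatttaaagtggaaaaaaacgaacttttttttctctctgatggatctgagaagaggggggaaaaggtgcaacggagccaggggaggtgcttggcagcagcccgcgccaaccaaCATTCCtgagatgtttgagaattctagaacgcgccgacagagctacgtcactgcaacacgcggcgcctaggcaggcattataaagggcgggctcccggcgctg
Ankrd1: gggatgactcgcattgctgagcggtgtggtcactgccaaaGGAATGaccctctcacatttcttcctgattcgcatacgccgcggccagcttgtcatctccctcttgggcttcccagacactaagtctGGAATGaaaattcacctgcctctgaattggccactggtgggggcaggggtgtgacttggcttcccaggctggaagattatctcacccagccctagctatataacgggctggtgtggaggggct
Ccn1 held 1 match and Ankrd1 held 2, while 3880 of 27025 windows (14.4%) held at least 1, so that the letters alone are common.

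Growth factor, matrix and metabolic genes completed the lists. Of 24 TGF-beta and activin genes 10 were higher and 6 lower (6 and 6 with the floor), against 9.80% and 10.2% of all genes. Thbs1, a matrix protein that activates TGF-beta, had 13.84, 12.71 and 13.61 on the Kupffer arrays, against 7.41, 8.41 and 7.49 on the monocytic arrays (5.62 ± 0.72, adjusted p = 8.59e-08), while the receptor Tgfbr1 differed by -2.51 ± 0.29 (adjusted p = 1.17e-08). Of 15 matrix metalloproteinases and inhibitors 5 were higher (Timp1, Timp3, Mmp8, Mmp2 and Mmp10) and 3 lower (Mmp9, Mmp13 and Timp2). Timp1, a secreted inhibitor of these enzymes, had 12.999, 12.35 and 12.27 on the Kupffer arrays, against 6.66, 6.76 and 7.01 on the monocytic arrays (5.73 ± 0.37, adjusted p = 1.25e-15). Mmp13, a collagenase, differed by -2.59 ± 0.45 (adjusted p = 2.95e-05).

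Of 19 glycolysis and hypoxia genes 8 were lower (5 without Kupffer replicate 2) and 1, Adm, higher. Pdk1, which keeps pyruvate out of mitochondria, had 9.87, 9.87 and 9.97 on the Kupffer arrays, against 12.07, 11.79 and 11.78 on the monocytic arrays (-1.98 ± 0.28, adjusted p = 6.92e-07). Pfkfb3, which drives glycolytic flux, differed by -2.01 ± 0.33 (adjusted p = 7.13e-06). Of 17 NRF2 and glutathione genes 7 were higher and 0 lower. Nqo1, a quinone reductase, had 10.42, 10.33 and 9.86 on the Kupffer arrays, against 6.72, 6.09 and 6.52 on the monocytic arrays (3.76 ± 0.35, adjusted p = 4.16e-11). Of 15 iron and acute phase genes 5 were higher (Lcn2, Hp, Cp, Slc40a1 and Tfrc) and 2 lower (Slc11a2 and Slc11a1; Slc11a2 not called without Kupffer replicate 2, at 0.166). Lcn2, a binder of bacterial iron carriers, was at least 29.6-fold higher, and Tfrc, the transferrin receptor, higher by 1.97 ± 0.36 (adjusted p = 1.4e-08 and 6.79e-05). Of 20 lineage transcription factors 3 were higher (Spic, Id3 and Tfec) and 6 lower, against 9.80% and 10.2% of all genes. Cebpa, a driver of myeloid differentiation, differed by -3.10 ± 0.39, and Rxra, the partner of LXR, by -2.53 ± 0.30 (adjusted p = 5.7e-08 and 1.15e-08).

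**Figure D3:**
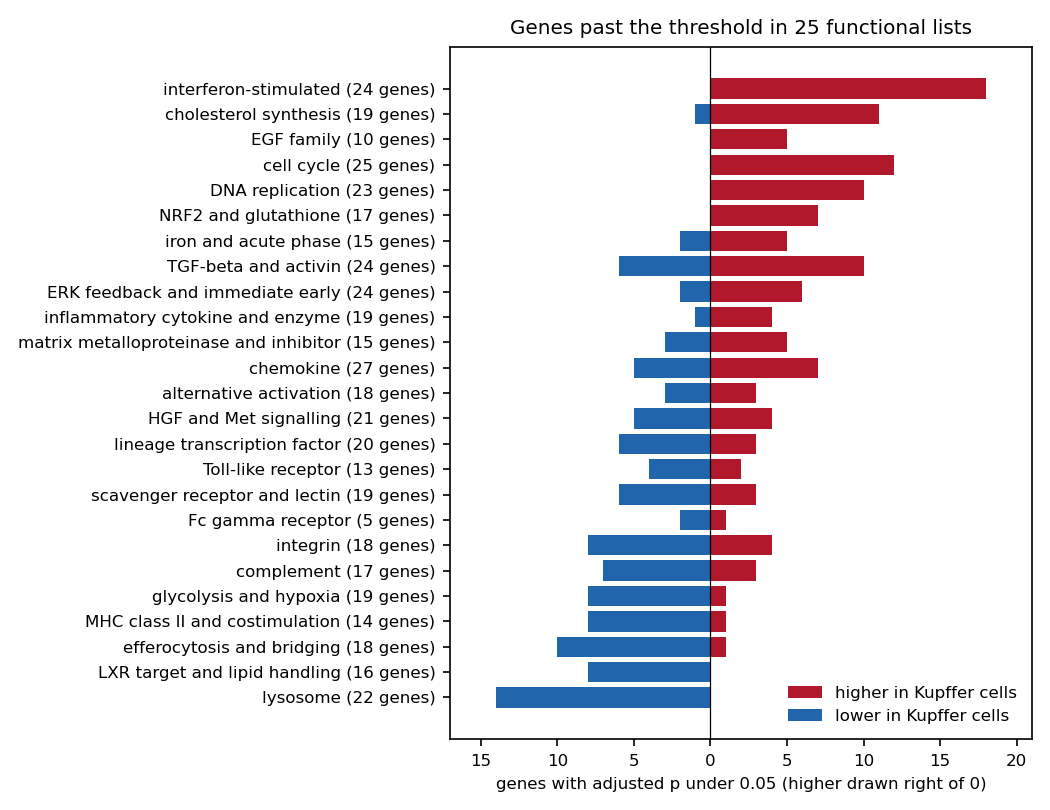
Number of genes called in each of 25 functional lists after 3 days with HGF, with bars to the right for genes higher and bars to the left for genes lower in Kupffer than in monocytic cultures. Interferon-stimulated genes (18 higher, 0 lower), cell cycle (12 and 0) and cholesterol synthesis (11 and 1) lie on the right, and lysosome (0 higher, 14 lower), efferocytosis (1 and 10) and LXR targets (0 and 8) on the left.

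Whether these gaps were there without HGF was asked by testing the Kupffer minus monocytic difference with HGF against the same difference in MCSF at 3 days. This difference of differences passed for 2964 genes (15.2%), 1479 upward (7.58%) and 1485 downward (7.61%). Both comparisons use HGF arrays named above, and the MCSF values are set beside them. In MCSF, 2355 genes differed between the cell types, 1244 higher and 1111 lower in Kupffer cultures.

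The epithelial and parenchymal genes were among those that changed most between the media. Krt7 had a mean of 14.45 ± 0.53 in Kupffer and 3.87 ± 0.30 in monocytic cultures with HGF, and of 3.91 ± 0.32 in Kupffer and 4.63 ± 0.14 in monocytic cultures in MCSF (SD, n = 3 each). The difference of differences was 11.30 ± 0.70 (SE; adjusted p = 4.75e-15). Its other 3 groups lay under the negative controls, and with values raised to them it was 9.01. Clu was at 8.59 ± 0.49 in Kupffer and 8.91 ± 1.13 in monocytic cultures in MCSF, so its difference of differences was 11.26 ± 0.73 (adjusted p = 8.68e-15). For Lmo7, Cryab and Krt18 it was 9.32 ± 0.71, 8.61 ± 0.69 and 8.46 ± 0.71 (adjusted p = 6.18e-13, 2.55e-12 and 5.15e-12), and with that floor 7.99, 7.40 and 6.504. Over the epithelial list 22 of 28 genes passed upward and 0 downward, with a median of 2.32, over the hepatocyte list 9 of 23, over the endothelial list 9 of 27 and over the Ito cell list 12 of 25, none of them downward. For the Ito cell list the shift lay more in the monocytic cultures, where 0 genes were higher and 12 lower with HGF than in MCSF (median -0.62), while in Kupffer cultures 5 were higher and 1 lower (median 0.20). Alb differed by 8.08 ± 0.66 and Cdh5 by 7.45 ± 0.78 (adjusted p = 3.76e-12 and 1.45e-09; 7.52 and 5.78 with the floor). The granule gene Mpo, at 4.73 ± 0.50 in Kupffer and 5.46 ± 0.21 in monocytic cultures in MCSF, differed by 7.64 ± 0.76 (adjusted p = 4.72e-10; 6.35 with the floor).

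**Figure D4:**
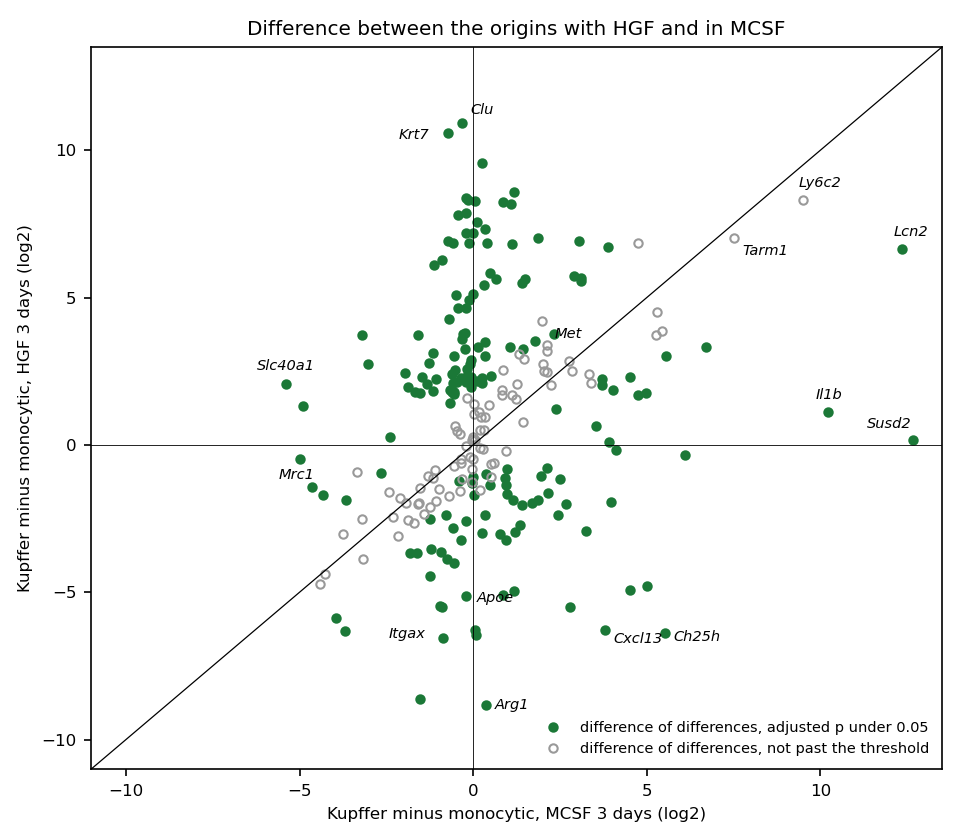
Kupffer minus monocytic log2 difference of the named genes after 3 days in MCSF (horizontal) and after 3 days with HGF (vertical), 1 point per gene, with filled green points where the difference of differences had an adjusted p under 0.05 and a diagonal line where both would be equal. Krt7 and Clu lie high at little difference in MCSF, Susd2 lies at 12.67 in MCSF and 0.15 with HGF, and Ly6c2 and Tarm1 lie near the diagonal.

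Some genes that were higher in Kupffer cultures in MCSF had a narrower gap with HGF, no gap that passed the test, or a gap of the opposite sign. Susd2, a sushi domain membrane protein, was below the negative controls on all 6 HGF arrays, but had 16.53 ± 0.45 in Kupffer and 3.86 ± 1.38 in monocytic cultures in MCSF (SD, n = 3 each), and passed at -12.52 ± 0.46 (adjusted p = 6.29e-23). As 3 of these 4 groups were under background, the size depends on it, and with values under the negative controls raised to them it was -10.78. Il1b, which did not pass between the cell types with HGF, stood at 16.31 ± 0.67 in Kupffer and 6.10 ± 0.42 in monocytic cultures in MCSF, a difference of differences of -9.09 ± 1.01 (adjusted p = 6.36e-09). Lcn2 kept a positive gap in both media, but a wider one in MCSF, where it stood at 19.16 ± 0.20 in Kupffer and 6.81 ± 2.93 in monocytic cultures (-5.70 ± 1.11, adjusted p = 0.000203). For the genes that follow, the difference turned from positive in MCSF to negative with HGF. Ch25h, Cxcl13, Prg4, a lubricating proteoglycan, and Slc7a2, a transporter of arginine, had Kupffer minus monocytic differences of 5.53 ± 0.96, 3.80 ± 0.71, 4.999 ± 0.92 and 4.51 ± 0.78 in MCSF. With HGF Ch25h and Slc7a2 were lower in Kupffer cultures, at -6.37 ± 0.96 and -4.91 ± 0.78, and Cxcl13 and Prg4 at least 53-fold and at least 12.6-fold lower (adjusted p = 2.22e-06, 4.89e-06, 5e-09 and 0.000123). Their differences of differences were -11.89 ± 1.36, -10.09 ± 1.01, -9.78 ± 1.30 and -9.43 ± 1.10 (adjusted p = 1.21e-08, 4.25e-10, 3.43e-07 and 1.75e-08).

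Arg1 was at 9.57 ± 1.21 in Kupffer and 9.20 ± 0.53 in monocytic cultures in MCSF, between its 2 levels with HGF. Its difference of differences was -9.19 ± 0.83 (adjusted p = 3.48e-11). Tested within each cell type, Arg1 changed by -4.27 ± 0.59 with HGF against MCSF in Kupffer cultures (adjusted p = 1.46e-07), and by 4.93 ± 0.59 in monocytic cultures (adjusted p = 6.93e-08). Apoe was at 19.00 ± 0.07 in Kupffer and 19.21 ± 0.24 in monocytic cultures in MCSF, with a difference of differences of -4.91 ± 0.43 (adjusted p = 2.2e-11). Both of these MCSF levels were close to the upper limit of the scale, where a gap between bright signals can be compressed. The difference of differences of C1qa was -6.34 ± 0.94 (adjusted p = 2.78e-06). Mrc1 moved upward, at 4.53 ± 0.74 (adjusted p = 1.33e-05), with 9.84 ± 0.52 in Kupffer and 14.84 ± 0.42 in monocytic cultures in MCSF. The iron exporter Slc40a1, at 7.45 ± 0.43 in Kupffer and 12.84 ± 1.23 in monocytic cultures in MCSF, moved by 7.46 ± 0.66 (adjusted p = 2.47e-11).

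Other wide gaps with HGF did not pass the test of the difference of differences. Ly6c2 differed by 9.50 ± 0.47 in MCSF, and its difference of differences was -1.17 ± 0.66 (adjusted p = 0.269). Tarm1 differed by 7.52 ± 0.38 in MCSF, with -0.51 ± 0.53 for the change (adjusted p = 0.61). For Met, at 8.74 ± 0.61 in Kupffer and 6.62 ± 0.20 in monocytic cultures in MCSF, the difference of differences was 1.29 ± 0.49 (adjusted p = 0.0692, but 0.0487 without Kupffer MCSF replicate 2, 0.034 without monocytic HGF replicate 1 and 0.0196 without the 3 arrays that stand apart). Within Kupffer cultures Met was higher with HGF than in MCSF by 1.74 ± 0.34 (adjusted p = 8.91e-05), and within monocytic cultures it changed by 0.45 ± 0.34 (adjusted p = 0.457).

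Among the functional lists, the interferon-stimulated genes narrowed their gap with HGF: 19 of 24 passed downward and 0 upward, with a median of -2.07. Their mean level was 11.54 in Kupffer and 7.99 in monocytic cultures in MCSF. Glycolysis and hypoxia genes passed downward in 15 of 19 (median -2.46), while 13 of the 19 were higher in Kupffer than monocytic cultures in MCSF. Core macrophage genes passed downward in 10 of 18 and upward in 0. Cholesterol synthesis genes passed upward in 12 of 19 (median 2.16). Cell cycle genes passed upward in 19 of 25 (median 3.31), or in 18 with 1 downward and a median of 1.54 without the arrays that stand apart. Their mean level was 6.12 in Kupffer and 7.51 in monocytic cultures in MCSF, the second of these with the monocytic array named above included.

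**Figure D5:**
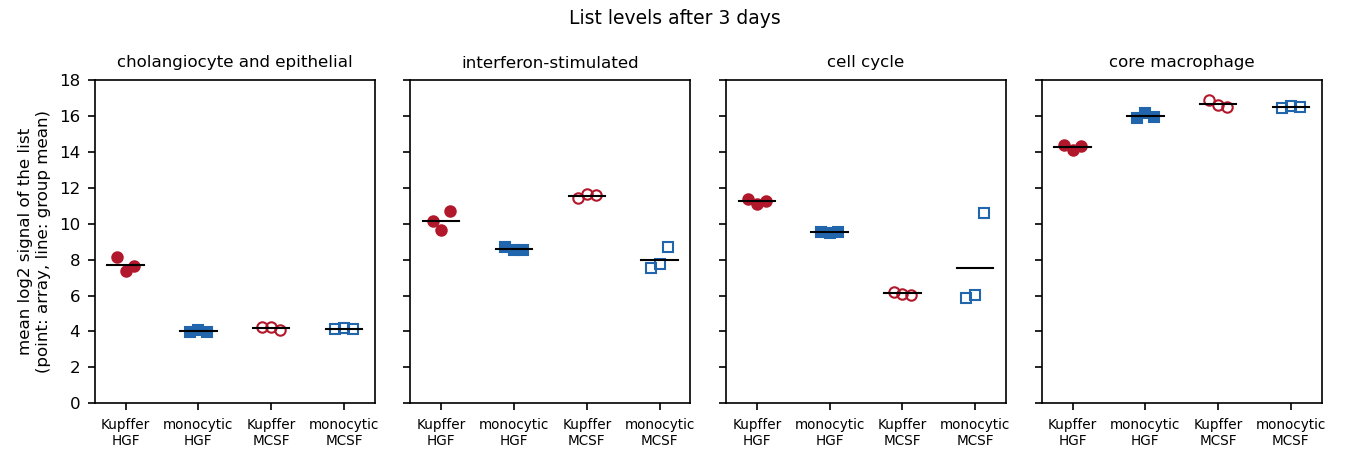
Mean log2 signal per array of 4 gene lists at 3 days in, from left to right, Kupffer cultures with HGF, monocytic cultures with HGF, Kupffer cultures in MCSF and monocytic cultures in MCSF, with points for arrays and a line for the group mean. Of these 4 groups, the epithelial list is highest in Kupffer cultures with HGF, at 7.34 to 8.15, and the core macrophage list is lowest there, at 14.10 to 14.38. In the cell cycle panel 1 monocytic MCSF array lies at 10.61. Kupffer cultures with CD146 cells at 3 days are not drawn, with means of 6.67 (epithelial), 11.49 (cell cycle) and 14.06 (core macrophage). Those with Ito cells had 6.12, 10.81 and 14.67.

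Time with HGF was asked by setting the Kupffer minus monocytic difference at 3 days against that at 1 day. The change over time passed for 6248 genes (32.0%), 1507 upward (7.73%) and 4741 downward (24.3%), but its median over all genes was -0.40, so the values of single genes below are given relative to that median, with the adjusted p of the change itself. The split depended on scaling, with 1580 upward and 1547 downward after quantile normalization and 2818 upward and 1569 downward with arrays centred on their medians. Leaving out the dimmest 25% of genes gave 1326 upward and 2139 downward, and raising values under the negative controls to them gave 1052 upward and 843 downward. The median was -0.16 without the dimmest 25% of genes and 0.0033 after quantile normalization. For brighter genes, the step of -0.40 taken off is thus larger than their own median. Without Kupffer HGF replicate 2 of 1 day, which stands apart, 888 passed upward and 3684 downward.

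Arg1 had the most negative change as fitted. At 1 day it was at 19.42 ± 0.24 in Kupffer and 19.25 ± 0.07 in monocytic cultures (SD, n = 3 each), close to the upper limit of the scale, where a gap between bright signals can be compressed. The change to 3 days, which rests on that 1 day gap, was -8.60 ± 0.83 (SE; adjusted p = 3.71e-10). Cd5l, in contrast, started apart, at 12.17 ± 0.58 in Kupffer and 3.11 ± 0.28 in monocytic cultures at 1 day, and stood at the levels given above at 3 days (-8.38 ± 0.71, adjusted p = 1.11e-11; -6.65 with the floor, before the median of all genes is taken off). Rasgrp3, an activator of Ras, changed by -6.60 ± 0.51, Epas1 by -5.997 ± 0.49 and Ms4a8a by -5.95 ± 1.31 (adjusted p = 4.77e-13, 2.85e-12 and 0.00048). Upward, Ptgs2 changed by 9.62 ± 0.83 (adjusted p = 1.79e-10), from a 1 day level of 10.25 ± 0.35 in Kupffer and 12.76 ± 2.52 in monocytic cultures. Cck, the peptide hormone cholecystokinin, changed by 8.29 ± 1.06, Tarm1 by 7.94 ± 0.53, Vcan, a matrix proteoglycan of monocytes, by 7.92 ± 0.80 and Ereg by 7.80 ± 0.88 (adjusted p = 1.08e-06, 2.52e-13, 1.13e-08 and 8.89e-08). Tarm1 was bright in both cell types at 1 day, at 12.70 ± 0.79 in Kupffer and 13.24 ± 0.28 in monocytic cultures.

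The epithelial genes were already apart at 1 day. Krt7 was at 9.75 ± 1.21 in Kupffer and 3.15 ± 0.60 in monocytic cultures at 1 day, and its gap widened (4.38 ± 0.70, adjusted p = 7.77e-05). Clu was at 16.50 ± 1.40 in Kupffer and 4.21 ± 0.25 in monocytic cultures at 1 day and did not pass for a change (adjusted p = 0.143). Of the 27 endothelial markers 23 passed downward and 0 upward, against 24.3% and 7.73% of all genes, with a median of -1.62 beside the -0.40 of all genes. At 3 days 15 of the 27 lay under background in both groups. From 1 to 3 days the list's mean went from 6.72 to 5.56 in Kupffer cultures. In monocytic cultures it went from 3.39 to 4.22, under background at both times, and this rise enters the change too. Of the 25 Ito cell markers 8 passed upward and 1 downward. Interferon-stimulated genes passed upward in 19 of 24 (median 1.93), cholesterol synthesis genes upward in 12 and downward in 1 of 19 (median 1.91), and LXR targets downward in 12 of 16 (median -2.11).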

How the data were processed

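RNA had been extracted with QIAZOL, labelled as biotinylated cRNA and hybridised to Affymetrix arrays, 1 array per culture, per the labels' protocols. The deposited values are log2 signals, 1 per probe set and array. Per the submitters' processing notes they came from RMA and the Transcriptome Analysis Console, with version not given in the sources used here. These arrays do not share 1 distribution, with median signals over genes of 5.30 to 5.37 on the Kupffer and 5.14 to 5.17 on the monocytic arrays, and a shift of that size enters each difference.

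Of 28846 probe sets, 6640 were controls. A further 2634 were not assigned to a single gene symbol and were fitted apart, with 281 of them called, 156 higher and 125 lower. Where a gene had several probe sets (55 genes), its brightest stood for it, and 19505 genes remained. A mean per group was fitted over all 48 arrays in limma 3.58.1 (R 4.3.3, package data.table, version 1.17.8), so that 16 groups share 1 estimate of the spread. Tests were moderated and two-sided, with p adjusted per contrast for all 19505 genes (Benjamini and Hochberg), at a threshold of 0.05. Figures and sequence tables were made in Python 3.11.15 with matplotlib 3.10.9, and the steps were tested on simulated data.

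Named genes were those with the largest differences among genes past the threshold (up to 12 per direction in the first contrast, with groups that do not overlap, and 5 in each of the other contrasts), leaving out unnamed gene models and families of near-identical genes. From each list described, up to 6 members were added by adjusted p, smallest first, and a short set of sort and lineage markers was named in any case. Genes named because a count was 5 or fewer, and Csf1, Ccn2 and Ankrd1, were chosen after their values were seen. The comparison and the 38 gene lists were chosen with earlier results of these data known. Of 685 listed genes 632 were measured.

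Equal replicate numbers did not pair the HGF arrays: the deviations from the group means correlated by 0.0715, -0.0727 and -0.215 for replicates 1, 2 and 3. Alternatives were median centring, quantile normalization, a filter on dim genes, array weights, a fit on only the arrays compared, a replicate block, a minimum change of 1 log2 unit and leaving out each array. A floor at the negative controls and a fit without the 3 arrays that stand apart were added after seeing the data.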

Additional observations from a re-analysis of the deposited data

Results flagged for a closer look

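These genes were singled out because the Kupffer minus monocytic difference itself differed, either between HGF and MCSF at 3 days or between 3 days and 1 day with HGF, by the test of that difference in the fit over all genes. Values are differences of log2 differences and no explanation is offered. Set against MCSF, the difference with HGF was more positive for the bile duct and junction genes Krt7 (11.30), Lmo7 (9.32), Krt18 (8.46), Cdh1 (8.25), Krt8 (8.23), Krt19 (7.39) and Epcam (4.05). The same held for Clu (11.26), Cryab (8.61), Ccn1 (7.42), Tm4sf1 (7.39) and Igfbp7 (7.10), and for Alb (8.08), Cdh5 (7.45) and Col1a1 (2.25), which mark hepatocytes, endothelium and collagen-making cells. Among macrophage genes it was more positive for Id3 (6.91), Mrc1 (4.53), Ccr2 (3.58), Cd5l (2.66) and Vsig4 (2.62).

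The difference with HGF was more negative than in MCSF for Susd2 (-12.52), Ch25h (-11.89), Cxcl13 (-10.09), Prg4 (-9.78), Slc7a2 (-9.43), Arg1 (-9.19), Il1b (-9.09) and F10 (-8.31). It was also more negative for Ms4a8a (-7.11), Lyz1 (-6.54), C1qa (-6.34), Itgax (-5.68), Pltp (-4.60), Sel1l3 (-4.52), Marco (-4.29) and Nr1h3 (-3.81). Smaller negative values were those of Adgre1 (-3.02), Timd4 (-2.91), Nos2 (-2.89), Serpinb10 (-2.62), Cx3cr1 (-2.06) and Epas1 (-1.94). The call of Serpinb10 was lost in 8 of the fits that left out 1 array (adjusted p 0.0519 to 0.134), and that of Cx3cr1 without Kupffer MCSF replicate 3 (0.0693), monocytic HGF replicate 2 (0.0588) or monocytic MCSF replicate 1 (0.0829). On only the arrays compared, without and with the replicate block, the calls of Cd5l (0.0504 and 0.0750) and Marco (0.0707 and 0.0635) were lost. Col1a1 lost its call with that block (0.0705) and with values under the negative controls raised to them (0.139). Values of genes under the negative controls in several groups depend on that background, and with the same floor Krt7 was at 9.01, Krt18 at 6.504 and Susd2 at -10.78. For 1 log2 unit as the minimum change, the calls of Cd5l, Col1a1, Cx3cr1, Epas1 and Serpinb10 were lost (adjusted p 0.223 to 0.608).

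Between 1 and 3 days with HGF, before the median of -0.40 over all genes is taken off, the difference changed by 9.22 for Ptgs2, 7.89 for Cck, 7.54 for Tarm1, 7.52 for Vcan and 7.40 for Ereg. It changed by -9.0 for Arg1, -8.78 for Cd5l, -7.00 for Rasgrp3, -6.39 for Epas1 and -6.35 for Ms4a8a.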

How the results depend on the processing

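In the first contrast, signs were compared for genes called both in the main fit and under an alternative. None turned under median centring, quantile normalization, array weights or a left-out array. The fit on only the arrays compared and the replicate block leave each difference as it is, so no sign could turn there. With the replicate block the counts were 3840 genes for the first contrast, 2913 for the difference of differences and 6120 for the change over time. With the replicate block on only the arrays compared they were 2807, 2037 and 1343, and 22 cell cycle and 16 DNA replication genes were higher. On only the arrays compared, 3127 and 1638 genes passed for the first contrast and the change over time, with 23 cell cycle and 17 DNA replication genes higher. Array weights gave 4817 genes for the difference of differences, and 22 cell cycle, 19 DNA replication and 11 chemokine genes higher. A minimum change of 1 log2 unit left 709, 760 and 298 genes in the 3 contrasts. Quantile normalization gave 3127 genes for the change over time and 17 DNA replication genes, median centring gave 3 EGF family genes, and leaving out the dimmest 25% of genes gave 3465 for the change over time. With the floor at the negative controls, 14 epithelial, 5 hepatocyte, 4 endothelial, 10 Ito cell, 3 chemokine, 3 EGF family and 6 TGF-beta genes were higher, and 1895 genes passed for the change over time. That floor also turned Erbb2, Scara3 and Stab2, which lie under background in both groups, to -0.15 each. Without the 3 arrays that stand apart, 24 cell cycle, 19 DNA replication and 13 chemokine genes were higher. Fits that left out 1 array gave 3084 to 3730, 2349 to 3278 and 4572 to 7389 genes in the 3 contrasts. Over those fits the lists ranged from 6 to 10 cell cycle, 6 to 11 DNA replication and 3 to 6 EGF family genes higher, and from 5 to 9 glycolysis, 4 to 7 MHC class II and 3 to 5 HGF and Met genes lower. The cause of these shifts was not tested. Of 250 genes followed in the first contrast, 212 were called, 76 lost their call and 14 others gained one under some alternative. Genes near the negative controls have little more than a direction, and 449 called genes lay under them in both groups.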
